A study of Mus musculus with 30 samples.

Results

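Msc and Aes encode transcriptional repressors, and their mRNA levels were followed over 15 tissues of the adult mouse. Msc (musculin, also called MyoR) is a basic helix-loop-helix (bHLH) factor that binds the E box, a short DNA motif, and represses genes that activating bHLH factors such as MyoD switch on. It is known from the precursors of skeletal muscle and from lymphocytes. Aes (amino-terminal enhancer of split, now Tle5, with Grg5 among its older names) is the short member of the Groucho/TLE family of corepressors. The long members bind DNA-bound factors, including TCF/LEF factors of the Wnt pathway and Hes factors of the Notch pathway, and recruit histone deacetylases. Aes shares their amino-terminal part but lacks the carboxy-terminal repeats that bind many of those factors.

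The 2 genes were chosen by their probes, Z00007161-1 for Msc and Z00012218-1 for Aes, out of 25030 probes in the authors' table. The array holds 1 spot of each. All samples came from male C57BL/6 mice, 28 weeks old per the labels (the study's methods give another age), with no treatment or genetic change named, and each tissue was hybridised on 2 arrays, 30 in all. They comprised heart and skeletal muscle, brain cortex, eyes and cerebellum, the stomach, large intestine and small intestine, liver, lung, bladder, kidney, bone, skin, and fat, which was visceral. Every array carried the tissue RNA in Cy3 and the same reference RNA in Cy5, a pool of cell lines, muscle myoblasts and B lymphocytes among them, to which embryonic stem cell RNA was added. The dyes were not exchanged. The series description says that replicates of most tissues came from different animals, but for fat and bone it speaks of a single replication, whereas the study's methods give different animals with no such exception. Whether the 2 arrays of fat and of bone are separate animals is therefore not settled.

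Values are log2(Cy3/Cy5) after background correction and normalization of each array by its own trend over intensity. A value of 0 thus means that trend, not equal signal from tissue and reference. On bone replicate 1, for example, Aes had a corrected signal of 5184 in Cy3 and 8399 in Cy5, and a value of 1.63. Tests used limma over 21019 probes with the spread pooled over all tissues, and a difference was called at a Benjamini-Hochberg adjusted p under 0.05. Across arrays the median Cy3 signal was 85.7 to 175 scanner units, and 53.9 to 76.9% of spots were well above background. The fat arrays correlated at r = 0.671 and the large intestine arrays at r = 0.798 across probes. Marker genes mostly followed their labels: Serpinc1 and Cps1 were highest in liver, Pdc and Sag in eyes, Krt10 in skin, Tnnt2 and Actn2 in heart, and Mybph and Cacna1s in skeletal muscle. The 2 heart markers set heart apart only weakly. Actn2 had 4.88 in heart, 4.79 in skin, 4.74 in bone and 4.21 in skeletal muscle. Tnnt2 had 3.98 in heart, 3.66 in bladder and 3.52 in lung. Cacna1s had 4.39 in skeletal muscle and 4.18 in bone. The muscle markers Actn3 and Myl1 were highest in bone, and they were also high in skin, at 3.66 and 4.25.

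The probes are shown because each gene rests on 1 probe. Both are 60 bases long, and their first 30 bases, positions 1 to 30 from the 5′ end, read as follows in the spot files:
Msc probe: agtttcaggggaagaatacgtggaccaggt
Aes probe: tgatttctttcttttgccagtattctatag
The Msc probe has a GC content of 45% and the Aes probe 35%. No other probe of the 42005 on the array shares a run of 20 bases with either (0 for both), on either strand. The position column of the spot files gives both probes as unmapped, so no genome position, exon or UTR is stated here.

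Msc differed among the tissues, and its means were highest in heart and skeletal muscle. Its log2 ratio was 0.76 and 0.44 on the heart arrays and 0.19 and 0.43 on the skeletal muscle arrays. The other 26 arrays had a median of -0.36, with a highest value of 0.17 on fat replicate 2 and a lowest of -0.77 on kidney replicate 2. The 4 heart and skeletal muscle arrays thus lay above all the others. Of 20852 probes with a value on every array, 2.49% show this arrangement, and Aes, below, does too. For Msc it depended on the scaling, as given below. The moderated F-test over the tissues gave an adjusted p of 4.69e-05 for Msc (F 8.48, limma). In that test 90.8% of all probes passed, so passing it does not set a gene apart.

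**Figure D1:**
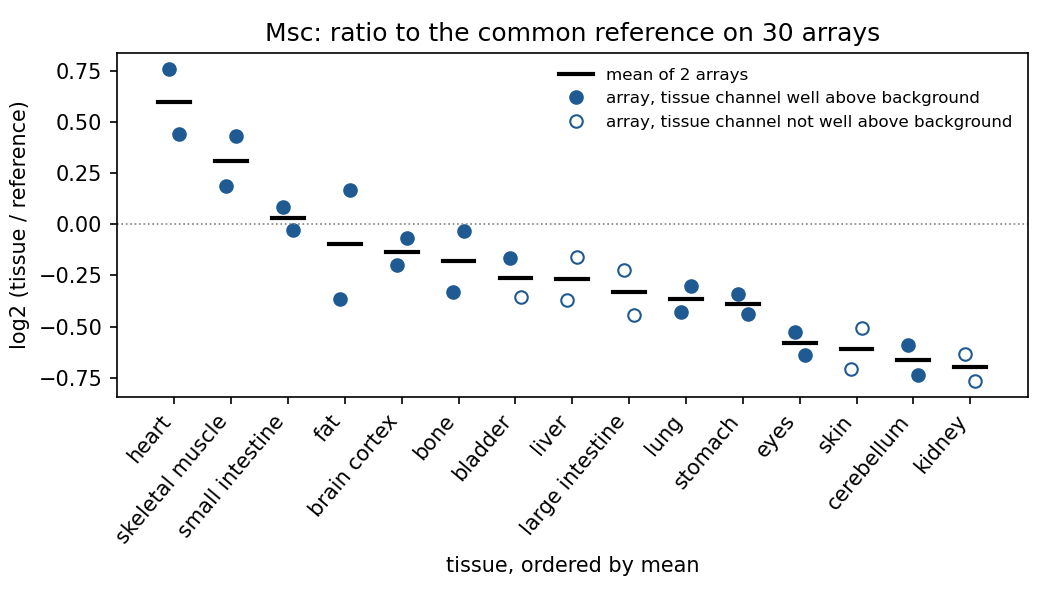
Log2 ratio of Msc to the common reference (y axis) on each of the 30 arrays by tissue (x axis, ordered by mean). Points are arrays, open where the tissue channel was not well above background, and bars are means of 2 arrays; heart and skeletal muscle sit above the rest, between 0.19 and 0.76.

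The Msc signal was weak, and this limits every value of it. The Cy3 mean signal of its spot was 63.1 to 135 scanner units over the 30 arrays (median 76.1), against a local background of 39 to 50.5. It was highest on heart replicate 1. In Cy5, the reference, the signal was 131 to 200 and was well above background on every array. In Cy3 it was well above background on 21 of 30 arrays. Both arrays fell short in liver, kidney, skin and large intestine, and bladder replicate 2 fell short as well. In those 4 tissues a level is only an upper limit. The ratios given next are therefore those of measured means, since the computed detection floor did not exceed the measured values. In the Cy3 channel after loess and scaling between arrays, heart to kidney was 2.28, to skin 2.09, to liver 1.80 and to large intestine 1.75. Such ratios were lowest under median centring, at 2.03 for kidney, 1.79 for skin, 1.51 for liver and 1.64 for large intestine. They were 2.16 for kidney and 2.03 for skin in Cy3 alone, and 4.87 or more for all 4 with the processed signals, so the size of these ratios depends on the scale.

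Below heart (0.60 ± 0.23, SD, n = 2) and skeletal muscle (0.31 ± 0.17, SD, n = 2), the order of Msc means was nearly continuous. Small intestine followed with 0.03 ± 0.08 (SD, n = 2). Its arrays had 0.08 and -0.03. Fat had -0.10 ± 0.38 (SD, n = 2), the widest spread of the 15 tissues, with -0.36 on replicate 1 and 0.17 on replicate 2. The background correction treated 1 slide unlike the others. Its corrected Cy3 value of the Msc spot, offset included, was 3.24 times the raw signal on fat replicate 2 and 4.79 times on bone replicate 2, against 0.966 to 1.17 times on the other 28 arrays, so these 2 Msc values are not on the same footing as the rest. Without the arrays of fat and bone, heart exceeded the mean of the others by 0.93 and skeletal muscle by 0.62, and both passed. Brain cortex, bone, bladder, liver, large intestine, lung and stomach lay between -0.13 and -0.39. Eyes (-0.58), skin (-0.61), cerebellum (-0.66) and kidney (-0.70) were at the bottom. A difference between 2 tissues had a 95% interval of 0.37 to either side. None of the 14 steps between neighbours in the order exceeded it (0 of 14), while 47 of the 105 pairs of tissues did. These counts include kidney, skin, liver and large intestine, where the level is only an upper limit.

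Against the mean of the other 14 tissues, Msc was called in 6 tissues, higher in 2 and lower in 4. Heart was higher by 0.90 (SE 0.13, adjusted p 1.46e-05 in limma), a factor of 1.87, and 42.1% of all probes were called in heart in either direction. Skeletal muscle was higher by 0.59 (SE 0.13, adjusted p 0.000708 in limma), where 53.3% of probes were called. The lower tissues were kidney with -0.49 (41.8% of probes called), cerebellum with -0.45 (55.8%), skin with -0.39 (40.4%) and eyes with -0.36 (46.1%). These 4 calls were less secure. Kidney and skin were not well above background. The adjusted p rose above 0.05 for cerebellum without its replicate 2 (0.108), for kidney without its replicate 2 (0.0999), for skin without its replicate 1 (0.282), and for eyes without either array (0.0902 and 0.232). Eyes and skin were also lost under median centring (adjusted p 0.0574 and 0.141 in limma), and cerebellum (0.0797), eyes (0.132) and skin (0.0766) in Cy3 alone. Cerebellum was lost in the authors' table too (0.0588). With slide as a random block kidney (0.133), cerebellum (0.118) and eyes (0.0742) were lost. The heart and skeletal muscle calls held when any 1 of the 30 arrays was left out, at log2 differences of 0.74 to 1.06 and of 0.47 to 0.71. The skeletal muscle call was the less secure of the 2. Under median centring its adjusted p was 0.0249 in limma, against 0.000616 for heart.

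**Figure D2:**
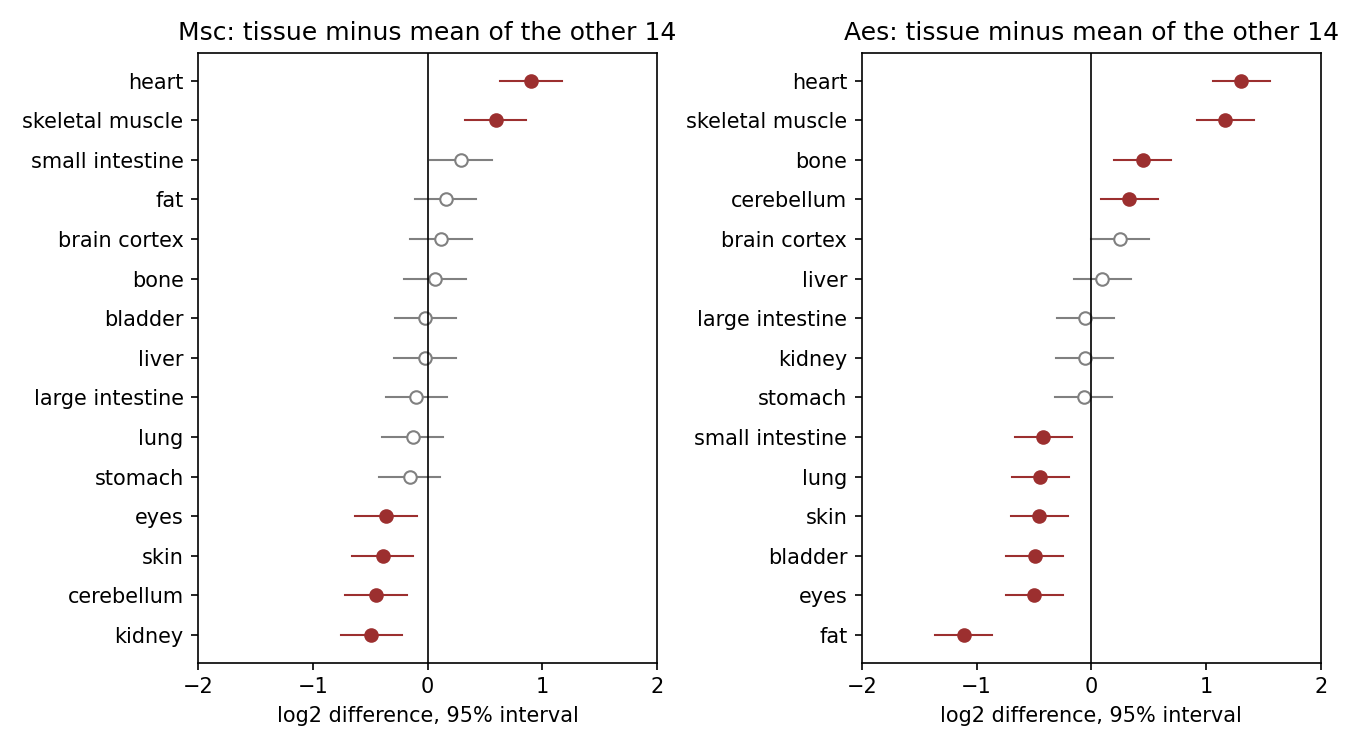
Difference of each tissue from the mean of the other 14 (x axis, log2) for Msc (left) and Aes (right), tissues on the y axis. Points are limma estimates with 95% intervals, filled where the adjusted p was under 0.05; heart and skeletal muscle lead both panels, and fat is lowest for Aes at -1.11.

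The size of the Msc difference depended on how the background was treated. Without the offset of 50 units, which draws dim spots towards the reference, heart was higher by 1.55 and skeletal muscle by 1.12. With the scanner software's processed signals the differences were 2.24 and 1.56, and 2.25 and 1.60 came from the authors' values. Median centring in place of loess gave 0.65 and 0.36. Both tissues passed the test in all of these. The separation of the 4 heart and skeletal muscle arrays from the rest did not hold under several of the scalings. In the processed signals fat replicate 2 had 1.11 and small intestine replicate 1 had 0.321, against 0.317 and 0.931 in skeletal muscle and 1.45 and 1.06 in heart. Fat replicate 2 lay above heart replicate 2 and both skeletal muscle arrays there, in Cy3 alone and in the authors' table. Under median centring skeletal muscle replicate 1 (-0.10) lay below fat replicate 2 (-0.02), brain cortex replicate 2 (-0.07) and bone replicate 2 (-0.09).

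**Figure D3:**
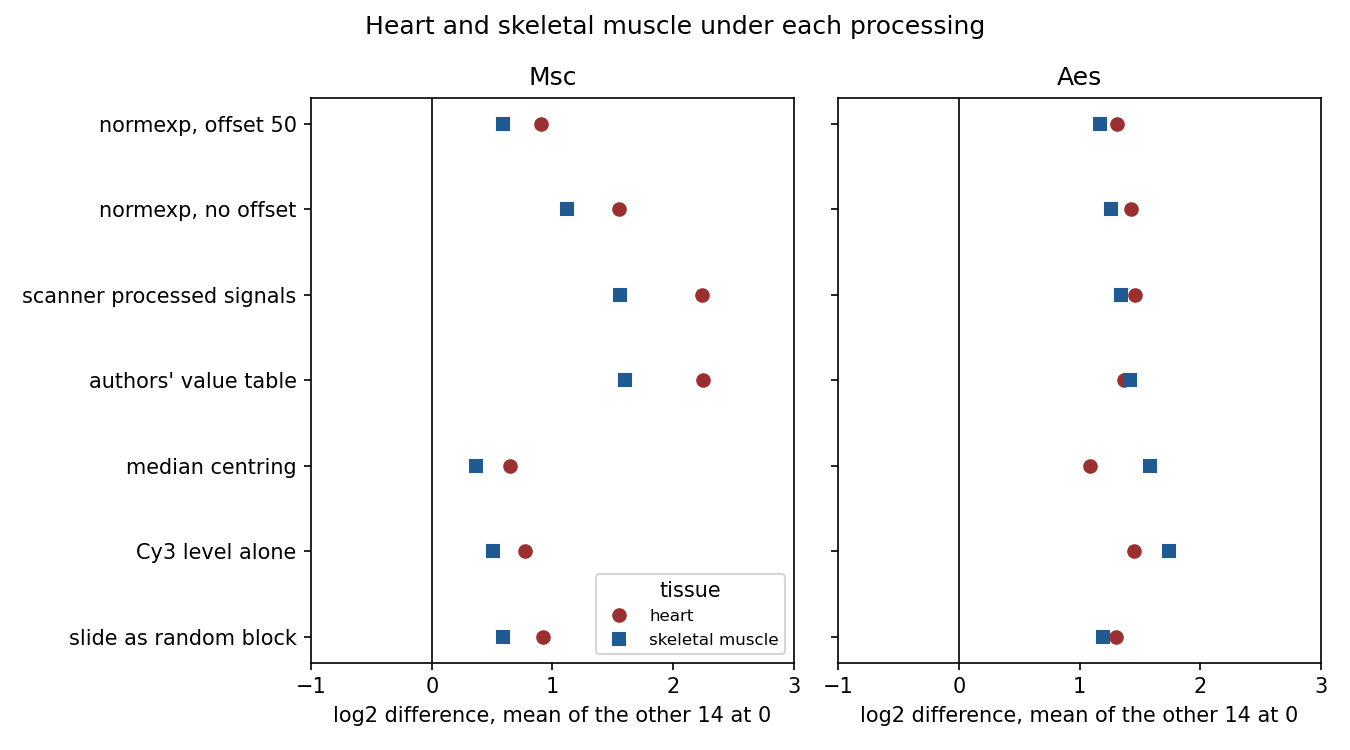
Difference of heart (circles) and skeletal muscle (squares) from the mean of the other 14 tissues (x axis, log2) under 7 ways of processing (y axis), for Msc (left) and Aes (right). For Msc the heart difference runs from 0.65 to 2.25; for Aes it stays between 1.08 and 1.46.

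Aes was well above background on all 30 arrays. The Cy3 signal of its spot ranged from 2136 to 24053 scanner units with a median of 5434, and its reference signal from 5913 to 12329. It too was highest in heart and skeletal muscle, and it was lowest in fat. Its log2 ratio was 2.35 and 2.44 on the heart arrays and 2.17 and 2.36 on the skeletal muscle arrays. The other 26 arrays had a median of 0.96 and reached 1.63 at most, on bone replicate 1. The fat arrays had 0.10 and 0.16, and every other array had at least 0.53. So neither the upper pair of tissues nor fat overlapped with the rest. Under median centring the upper pair stayed apart, but skin replicate 1 (-1.17) and small intestine replicate 2 (-0.96) lay below fat replicate 1 (-0.74). Both fat arrays lay below the other 28 for 0.408% of the probes with a value on every array. The F-test gave Aes an adjusted p of 1.19e-08 (F 27.5, limma).

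**Figure D4:**
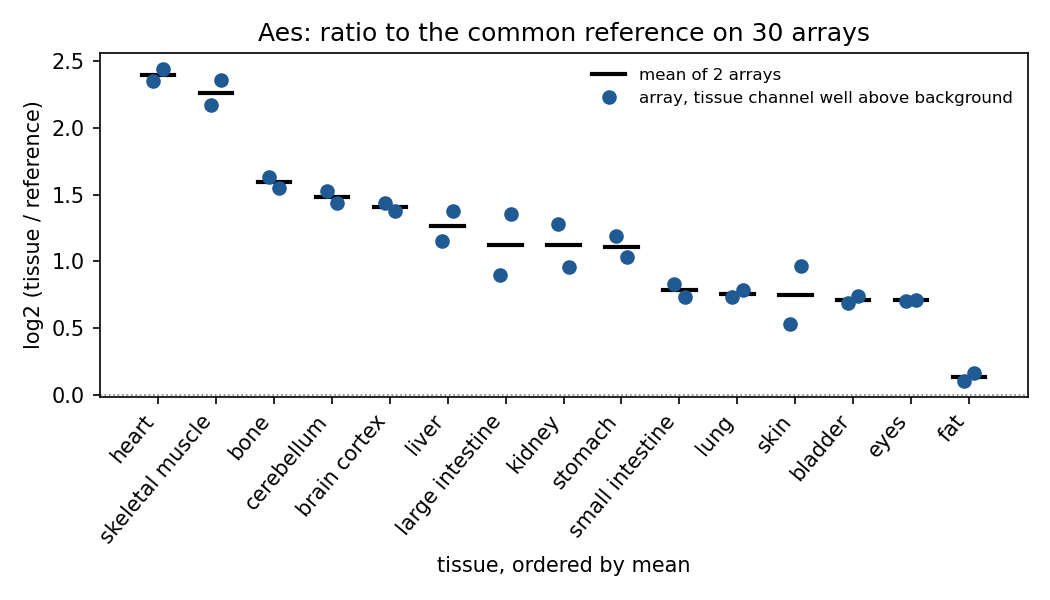
Log2 ratio of Aes to the common reference (y axis) on each of the 30 arrays by tissue (x axis, ordered by mean). Points are arrays and bars are means of 2 arrays; heart and skeletal muscle lie above 2.1, fat lies below 0.2, and the other 12 tissues lie between 0.53 and 1.63.

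From top to bottom, Aes fell by 2.26 on the log2 scale from heart to fat, a factor of 4.79. Heart (2.39 ± 0.07, SD, n = 2) and skeletal muscle (2.26 ± 0.13, SD, n = 2) overlapped. A step of 0.67 led to bone (1.59 ± 0.06, SD, n = 2), which was followed by cerebellum (1.48 ± 0.06, SD, n = 2) and brain cortex (1.41 ± 0.04, SD, n = 2). Liver, large intestine, kidney and stomach lay between 1.26 and 1.11, and small intestine, lung, skin, bladder and eyes between 0.78 and 0.71. Within these runs neighbours differed by 0.14 or less. The last step, from eyes to fat (0.13 ± 0.04, SD, n = 2), was 0.57. Only the steps below skeletal muscle and above fat exceeded the 95% interval of a pair, 0.34 to either side (2 of 14 neighbours), whereas 77 of 105 pairs of tissues did. The arrays of skin (0.53 and 0.97) and of large intestine (0.90 and 1.35) were the farthest apart.

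Aes was called in 10 of the 15 tissues, higher in 4 and lower in 6. Heart was higher by 1.31 (SE 0.12, adjusted p 6.72e-08 in limma), a factor of 2.48. Skeletal muscle was higher by 1.17 (SE 0.12, adjusted p 1.88e-07 in limma), a factor of 2.25. Fat was lower, with a log2 difference of -1.11 (SE 0.12, adjusted p 1.48e-06 in limma), a factor of 2.16, and there 32.9% of all probes were called. Bone was higher by 0.45 (adjusted p 0.00572, 38.6% of probes called) and cerebellum by 0.33 (adjusted p 0.0243), both by limma. Eyes (-0.50), bladder (-0.49, 34.4% of probes called), skin (-0.45), lung (-0.44, 44.1%) and small intestine (-0.42, 45.8%) were lower. Brain cortex, large intestine, liver and stomach were called for neither gene, and of all probes 55.6%, 49.0%, 50.8% and 35.2% were called there.

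The heart, skeletal muscle and fat calls of Aes held without any 1 array, at log2 differences of 1.26 to 1.36, 1.07 to 1.26 and -1.14 to -1.08. Single arrays decided several of the smaller ones. Without its replicate 1 the skin difference was -0.24, and it did not pass (adjusted p 0.304 in limma). The adjusted p also rose above 0.05 for small intestine without its replicate 2 (0.108), bladder without its replicate 1 (0.0648), lung without its replicate 1 (0.078), bone without its replicate 1 (0.0822), and cerebellum without either array (0.196 and 0.0893). Under median centring bladder and bone changed sign, to 0.06 and -0.02, and cerebellum, eyes and lung were lost (adjusted p 0.152, 0.137 and 0.402 in limma). With slide as a random block bladder, bone and cerebellum were lost (0.162, 0.0825 and 0.191). Cerebellum was also lost with the processed signals (0.116), in the authors' table (0.220), without the offset (0.0855) and without fat and bone (0.0530), and bone with array weights (0.129). In bone the skeletal muscle markers Actn3 (5.49), Myl1 (4.40), Cacna1s (4.18) and Mybph (2.97) were high, as they were in skeletal muscle (4.90, 3.63, 4.39 and 5.05). They were also high in skin (3.66, 4.25, 3.81 and 3.37), where Aes was low. Their part in the bone value was not tested. In bulk tissue, fewer cells of a type and less RNA per cell cannot be told apart.

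Related organs were compared directly, and neither gene passed in any of the 3 pairs, although some differences did under the alternatives given here. Between heart and skeletal muscle Msc differed by 0.29 (95% interval -0.08 to 0.66) and Aes by 0.13 (-0.21 to 0.47), while 24.3% of probes were called. The Msc difference was 0.13 without heart replicate 1, 0.45 without heart replicate 2 and 0.17 without skeletal muscle replicate 1, none of which passed, and it passed with array weights (0.29, adjusted p 0.0337 in limma). Aes had the opposite sign, higher in skeletal muscle, under median centring (-0.47), in Cy3 alone (-0.28) and in the authors' table (-0.04), without passing. Between brain cortex and cerebellum Aes differed by -0.08 (-0.42 to 0.26). Msc was higher in cortex by 0.53 (0.16 to 0.90), with an adjusted p of 0.0723 in limma, and 8.73% of probes were called in this pair. It passed under some settings, with an adjusted p of 0.00484 with array weights and 0.0185 without the arrays of fat and bone, and 0.0271 without either fat array alone. In cortex against cerebellum Msc also passed with slide as a random block (0.49, adjusted p 0.0314 in limma). It did not pass with slide as a fixed block (0.46, adjusted p 0.0907 in limma). Between small and large intestine Msc differed by 0.36 (-0.00484 to 0.73), an interval that includes no difference, and large intestine was not well above background. Aes differed by -0.34 (-0.68 to -0.00345) in the same pair, in which 17.5% of probes were called. Without large intestine replicate 1 it was -0.57, with an adjusted p of 0.0116 in limma.

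Slide and scan day could be separated from tissue only in part. The 2 heart arrays shared 1 slide with the 2 liver arrays. Within that slide heart exceeded liver by 1.13 for Aes. For Msc the measured difference was 0.87, with liver not well above background on either array, so that its level there is only an upper limit. Within its scan day heart exceeded the mean of 7 other tissues by 1.02 and 1.32. Skeletal muscle exceeded the mean of 5 other tissues of its scan day by 0.62 for Msc and 1.53 for Aes. For Aes, fat replicate 1 minus the mean of 5 other tissues of its day was -1.06, and fat replicate 2 minus the bone array of its slide was -1.39. A fixed term for slide or scan day left the tissue contrasts against the mean of the others without an estimate. The main fit treated arrays that share a slide as independent. With slide as a random block the estimated correlation between arrays of a slide was 0.693. Heart and skeletal muscle kept their calls for both genes in that fit, and Msc was called in 3 tissues instead of 6. The adjusted p in heart (limma) was 0.00367 for Msc and 0.000264 for Aes, against 1.46e-05 and 6.72e-08 in the main fit.

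Information over the tissues, in bits, measures how unevenly a signal is shared out, from 0 for equal levels to 3.91 for a single tissue. Msc had 0.0474 bits and Aes 0.133 bits, against a median of 0.159 over all probes, and 21.6% and 45.6% of probes had less. The value of Msc depended on the processing: it was 0.169 without the offset, 0.372 with the processed signals, 0.0250 under median centring and 0.0345 in Cy3 alone. For Aes these values were 0.156, 0.169, 0.169 and 0.220.

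Heart and skeletal muscle led both profiles. Over the 15 tissue means the Pearson r between Msc and Aes was 0.565 and Spearman's rho 0.318. Over the 13 tissues other than heart and skeletal muscle, r was -0.157, and it was -0.36 to -0.09 under the other scalings. In 4 of these 13 tissues Msc was not well above background. Over the 9 that remain r was -0.24, and it was -0.50 to -0.17 under the other scalings. These are descriptions of points that share arrays and reference. Msc was well above background on at least 1 array in 11 tissues. Among these, cerebellum, which ranked 4 of 15 for Aes, had the lowest mean, and fat, lowest for Aes, ranked 4. Both Msc ranks are weak. Fat had 0.17 on replicate 2, which is not on the same footing as the rest, and -0.36 on replicate 1. Eyes lay below cerebellum in the processed signals (-1.94 and -1.74) and in the authors' table (5.08 and 5.45). No step between neighbours in the Msc order exceeded the 95% interval of a pair, 0.37 to either side.

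**Figure D5:**
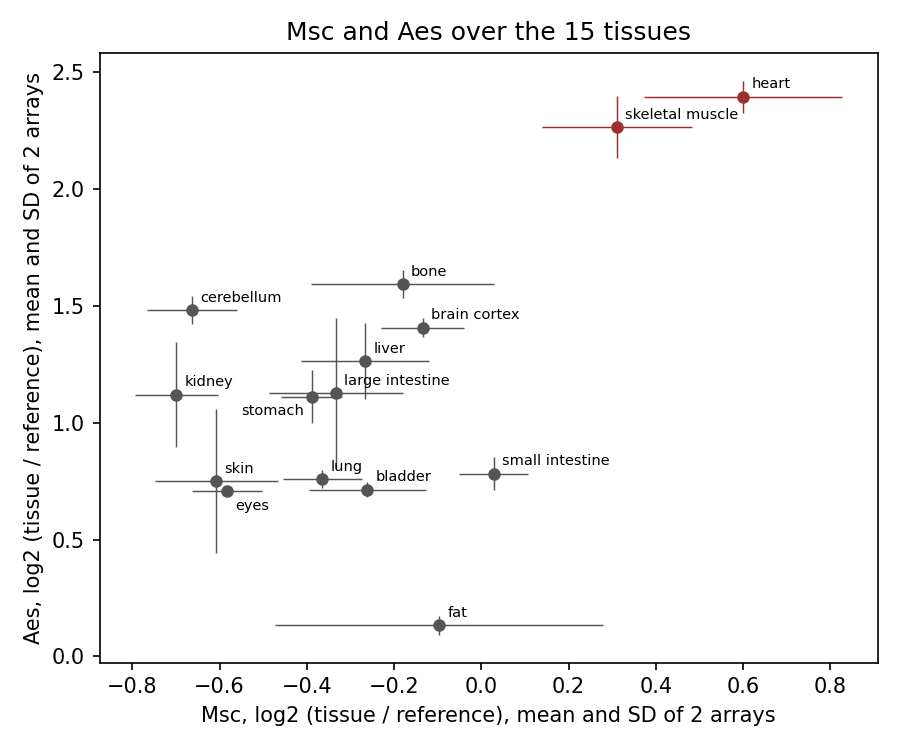
Mean log2 ratio of Msc (x axis) against that of Aes (y axis) for each of the 15 tissues, with SD of 2 arrays as bars. Heart and skeletal muscle stand at the upper right, and the other 13 tissues, of which 4 have Msc not well above background, have an r of -0.157.

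Profiles most like each gene were sought among 5047 other probes with a symbol, by Pearson r over the 15 tissue means. For Msc the 5 closest were Tmem160 (r 0.816), 1700072H12Rik (0.780), Cd28 (0.777), 9530036O11Rik (0.763) and Ankrd40 (0.760). Cd28 encodes a costimulatory receptor of T cells, and its highest mean here was in skeletal muscle, 1.08. For Aes, close profiles were those of 2310061C15Rik, now Cmc2 (r 0.909), Uqcc, now Uqcc1 (0.891), AI847670, now Fam185a (0.890) and Ndufs7 (0.880). Uqcc1 is an assembly factor of respiratory complex III and Ndufs7 a subunit of complex I.

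The genes around the 2 repressors were examined in heart, whose mean was the highest of the 15 for both, although for Aes skeletal muscle was higher under median centring, in Cy3 alone and in the authors' table. In heart, 18.8% of all probes were called higher and 23.3% lower than the mean of the other 14 tissues, with a median difference of -0.09. Lists hold only genes that have a symbol in the study's probe lists. Of the partners of the TLE family only Hes6, a bHLH factor of the Hes family, was analysed, and its difference was 0.03 (not called). The long TLE genes themselves were not analysed here. Of 9 genes of the Wnt pathway, 1 was higher in heart and 5 were lower (median -0.57). Dkk2, a secreted Wnt regulator, was higher by 1.18 (SE 0.20, adjusted p 8.93e-05 in limma), with 2.30 and 2.34 on the heart arrays. The ligand Wnt10a differed by -1.07 and the SUMO protease Senp1 by -0.71. The receptor Fzd5 was called lower as well and was not well above background on either heart array. Fzd7, another receptor, and Dvl1, which relays the signal, were the other 2 called lower. Axin1, Apc and Wnt6 were not called. The median stayed between -0.55 and -0.62 under the other scalings, with 4 or 5 of the 9 genes called lower. Skeletal muscle differed from heart here. Fzd7 and Dvl1 had their highest means there and were called higher, by 1.72 and 1.42. Of the 9 genes, 2 were higher and 3 lower in skeletal muscle.

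Of 13 genes of histone deacetylase and corepressor complexes, 1 was higher in heart and 2 were lower (median -0.10). Hdac1, the deacetylase recruited by the long TLE proteins, differed by -0.94 (SE 0.18, adjusted p 0.000369 in limma). Its heart arrays had -0.79 and -0.74. Mta2, of the NuRD complex, differed by -0.61. Hdac4, a class IIa deacetylase that binds MEF2 factors, was higher by 0.49 in heart, and its highest mean was in skeletal muscle. This call of Hdac4 was lost under median centring, where none of the 13 was higher (0 of 13), and the median of the list changed sign in Cy3 alone (0.05). Of 4 bHLH factors, Npas2, of the circadian clock, was lower, with a difference of -0.51, but it did not pass with the processed signals, in Cy3 alone or in the values of the authors. Myog, Ahr and Twist2 were not called.

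Of 15 striated muscle genes 9 were higher in heart and 1 was lower, with a median difference of 1.07. Fhl2, a LIM domain protein, was higher by 7.08, Ankrd23, an ankyrin repeat protein of the sarcomere, by 4.40, the cardiac troponin Tnnt2 by 3.75 and the Z-disc protein Actn2 by 3.02. In Cy3 alone the differences of Tnnt2 and Actn2 were 7.31 and 5.77. The gene called lower was Actn3, the actinin of fast skeletal muscle fibres. Under the other scalings 8 to 10 of the 15 were higher and 1 or 2 lower, and the median ranged from 0.62 in Cy3 alone to 2.13 in the authors' table. Of 15 B cell and leukocyte genes, 4 were higher and 2 lower (median -0.03), and that median changed sign among the scalings. Rcsd1, a regulator of actin capping, was higher by 2.42 and Cd28 by 1.50, and both had their highest mean in skeletal muscle. With the processed signals the difference of Cd28 was 3.47, and under median centring the list had 2 genes higher and 1 lower. Fcgr3, an Fc receptor of myeloid cells, was higher by 0.91, and Zap70, a kinase of T cells, was lower, with a difference of -0.94 (-1.73 with the processed signals). The B cell markers Fcrla and Faim3 and the common leukocyte antigen Ptprc were not called in heart, and all 3 were highest in lung, where the mean of Msc was -0.36.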

How the data were processed

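RNA of 15 tissues was hybridised on 30 two-colour Agilent arrays (Cy3 tissue, Cy5 reference). The authors used Feature Extraction 9.5.1.1 to read the spots, and the spot files they deposited give, per spot, mean signals, local backgrounds and processed signals as intensity in scanner units, besides flags, which are other kinds of value. Their columns of the software's own log ratio and its p-value were not used. The deposited value table of the authors holds log10 values. Over 11822 bright probes it followed log10 processed Cy3 minus the deviation of log10 processed Cy5 from its mean (lowest r 0.999942 over the arrays). It served as an alternative after conversion to log2.

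Here the mean signals were corrected for background with normexp (offset 50, fitted on all spots). Controls and 475 spots flagged as outliers were then dropped, loess was applied within each array, and spots of one probe were averaged. A probe was tested if at least 1 tissue had Cy3 well above background on each of its arrays, 21019 of 25030 (84.0%). limma 3.58.1 in R 4.3.3 was fitted with 1 coefficient per tissue (15 residual degrees of freedom). The 19 comparisons were the F-test, 15 tissues against the mean of the other 14, and 3 pairs of organs, two-sided, with Benjamini-Hochberg adjustment within each. The fit was tested on simulated data. The number of arrays limits the precision.

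Symbols came from the study's probe lists (5049 of the probes tested, 24.0%) and were updated through a RefSeq table (GRCm38.p6), which gives Tle5 for Aes. For each list the text may name the 4 called genes with the largest difference, and for each gene the 5 closest profiles. One of these profiles is not reported here. Genes named beyond these were chosen after their values were seen. The members and lists were chosen with earlier results of these data known. Alternatives comprised other background corrections, scalings and filters, slide, scan day, the replicate number, array weights and leaving out each array. Normexp without offset and the fit without fat and bone, each tissue against the mean of those left, were added after seeing the data.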

Additional observations from a re-analysis of the deposited data

How the results depend on the processing

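The F-tests of both genes passed, and Msc and Aes kept their calls in heart and skeletal muscle and Aes its call in fat, under every alternative that could be fitted, leaving out each array included. Msc was called in 3 tissues in Cy3 alone and with slide as a random block, and in 5 to 8 when single arrays were left out. Aes was called in 6 tissues under median centring and in 9 to 11 without single arrays. Between brain cortex and cerebellum Msc passed with slide as a random block (0.493884), array weights (0.529889), no offset (1.13) and without fat and bone (0.529889), and ranged from 0.46 to 0.60 without single arrays, passing without fat replicate 1 or fat replicate 2 (adjusted p 0.0271 each). Between heart and skeletal muscle it passed with array weights (0.289076). Aes changed sign in that pair under median centring (-0.468477), in Cy3 alone (-0.275511) and in the authors' table (-0.043019), and between cortex and cerebellum under median centring (0.161046). Between small and large intestine it ranged from -0.57 to -0.12 without single arrays. Against the mean of the others, bladder and bone reversed for Aes under median centring (0.0595705 and -0.0182453). The causes were not tested.

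The replicate number as a block changed no call of Msc or Aes, with the same differences (0.90 for Msc and 1.31 for Aes in heart) and adjusted p of 2.38e-05 and 1.2e-07 there. Between tissues, r of the deviations of arrays with one number ranged from -0.246 to 0.342 over 105 pairs (median 0.0475) and was above 0.1 in 33 of them, so the numbers were not taken to pair the arrays. With slide or scan day as a fixed block only the brain and intestine pairs could be estimated, where nothing passed. The weak Msc signal limits its values.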
